A study of Mus musculus with 4 samples.

Results

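Integrins and laminins were examined as the set of all mouse genes whose symbols name an integrin alpha chain, an integrin beta chain or a laminin alpha, beta or gamma chain. The rule used symbols alone and no measured value. Earlier results of these data were known when the genes and lists were chosen. The set held 37 genes, of which 35 had a probe on the array, 24 of them integrins and 11 laminins, among 21762 named genes in all. No probe was matched to Itga10 or Itgae, and these genes were not analysed here.

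The hearts came from male C57BL/6J mice that had undergone either transverse aortic constriction (TAC), a narrowing of the aorta that loads the left ventricle with pressure, or a sham operation. Hearts were taken 2 weeks and 8 weeks after surgery. The labels give ages of 10 weeks and 16 weeks for these hearts, which does not match the age at surgery in the study's methods. For each of the 4 conditions, total RNA pooled from several mice was hybridized to 1 single-color Agilent array, so every fold change below is the ratio of 1 pool to another, and no test could be made within a time. A fit over both times is given beside the counts. The sample titles name the heart and no part of it. In such bulk RNA, fewer cells of a type and less RNA per cell cannot be told apart.

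Integrins are receptors made of an alpha and a beta chain that anchor cells to the extracellular matrix or to other cells and pass mechanical force to the cytoskeleton. Laminins are trimers of an alpha, a beta and a gamma chain that form the core sheet of basement membranes, the layer around each cardiomyocyte and under the endothelium. In adult heart muscle the main laminin receptors are the integrin of alpha7 and beta1 and dystroglycan, while other alpha chains sit on fibroblasts, vessels and blood cells.

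Signals are given as relative signal, the multiple of an array's 75th percentile over its 55681 probes other than controls. A gene was represented by its brightest probe, and levels are compared between arrays and not between genes. The exception is the summed signals of cell type markers, in which the brightest probes weigh most. A gene counted as higher where TAC exceeded sham by more than 2-fold or, as a second level, 1.5-fold, and the scanner had marked its TAC spot as well above background. It counted as lower by the mirror rule. The 75th percentiles ran from 206.0 to 248.5 in scanner units, and 67.2% to 70.1% of the named genes were well above background. As a check of the labels, all 5 hypertrophy genes examined (Nppa, Nppb, Myh7, Acta1 and Ankrd1) rose over 2-fold at both times. The spots of 267 probes printed 10 times gave the noise within an array. From it, the SD of a log2 ratio between a pair of arrays was 0.29 for signals below 0.25, 0.16 up to 1, 0.10 up to 4 and 0.09 above. This noise leaves out the differences between mice and between hybridizations.

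Most changes of integrins and laminins after TAC were small. Of the 35 genes measured, Itgb7 alone rose over 2-fold at 2 weeks, where 1.75% of all named genes did. No integrin or laminin rose over 2-fold at 8 weeks (2.35% of all genes did), and none fell over 2-fold at 2 weeks (0.868%) or at 8 weeks (1.48%). At 1.5-fold, 6 of 35 genes (17.1%) were higher at 2 weeks, compared with 4.84% of all named genes. These were Itga4, Itga5, Itga9, Itgav, Itgb3 and Itgb7. At 8 weeks 6 genes were again higher (17.1%, against 5.16% of all genes), among them Itga9, Itgax, Itga11, Itgb3 and Itgb7. Itgb6 and Lamb3 were over 1.5-fold lower at 2 weeks (2.38% of all genes) and Lamb3 at 8 weeks (4.01%). These lists depended on the background correction. The normexp correction starts from the median signals of spot and background in place of the processed signal. It also adds an offset to each signal, which draws the ratios of dim genes toward 0. With normexp, Itga9 alone stayed past 1.5-fold upward at 2 weeks (0.956% of all genes did) and Lamb3 alone downward (0.79%). At 8 weeks 4 members stayed higher (2.27% of all genes), among them Itga9, Itga11 and Itgb3, and Lamb3 stayed lower (1.13%).

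Itga9, Itgb3 and Itgb7 were over 1.5-fold higher at both times (1.89% of all genes), and Lamb3 was over 1.5-fold lower at both (0.887%). No member passed 2-fold at both times in either direction, as 0.565% and 0.17% of all genes did. A limma fit of TAC against sham over the 4 arrays, with time as a block and 1 residual degree of freedom, was added after these values had been seen. It takes the difference between the effects at the 2 times as error and does not measure the spread between mice. At a Benjamini-Hochberg adjusted p under 0.05, 6 of the 35 members were higher (17.1%, against 2.55% of all named genes) and Lamb3 was lower (1.93% of all genes). Lamb3 had a mean log2 ratio of -0.90 ± 0.08 (SE, limma adjusted p = 0.0143). Among the 6 were Itga9, with a mean of 0.80 ± 0.07 (limma adjusted p = 0.0137), and Itgb1, with 0.42 ± 0.07 (limma adjusted p = 0.0391). Itga11, Itgb3 and Lamb1 passed as well, with means of 0.76, 0.78 and 0.32. Itgb7 did not pass, with a mean of 0.90 ± 0.21 (limma adjusted p = 0.0856). On normexp values the same fit called 13 members higher and 2 lower, against 6.5% and 4.65% of all genes. There the prior degrees of freedom were infinite, so each gene's own spread did not enter its p. The sham pools, which differ in time and age and not in TAC, set the scale of differences between pools. From 2 to 8 weeks of sham, Itgb6 was over 1.5-fold higher, and no other member passed 1.5-fold in either direction by the same rule. Among all named genes 2.67% were higher and 1.63% lower between the sham pools at 1.5-fold, and 1.18% and 0.731% at 2-fold.

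**Figure D1:**
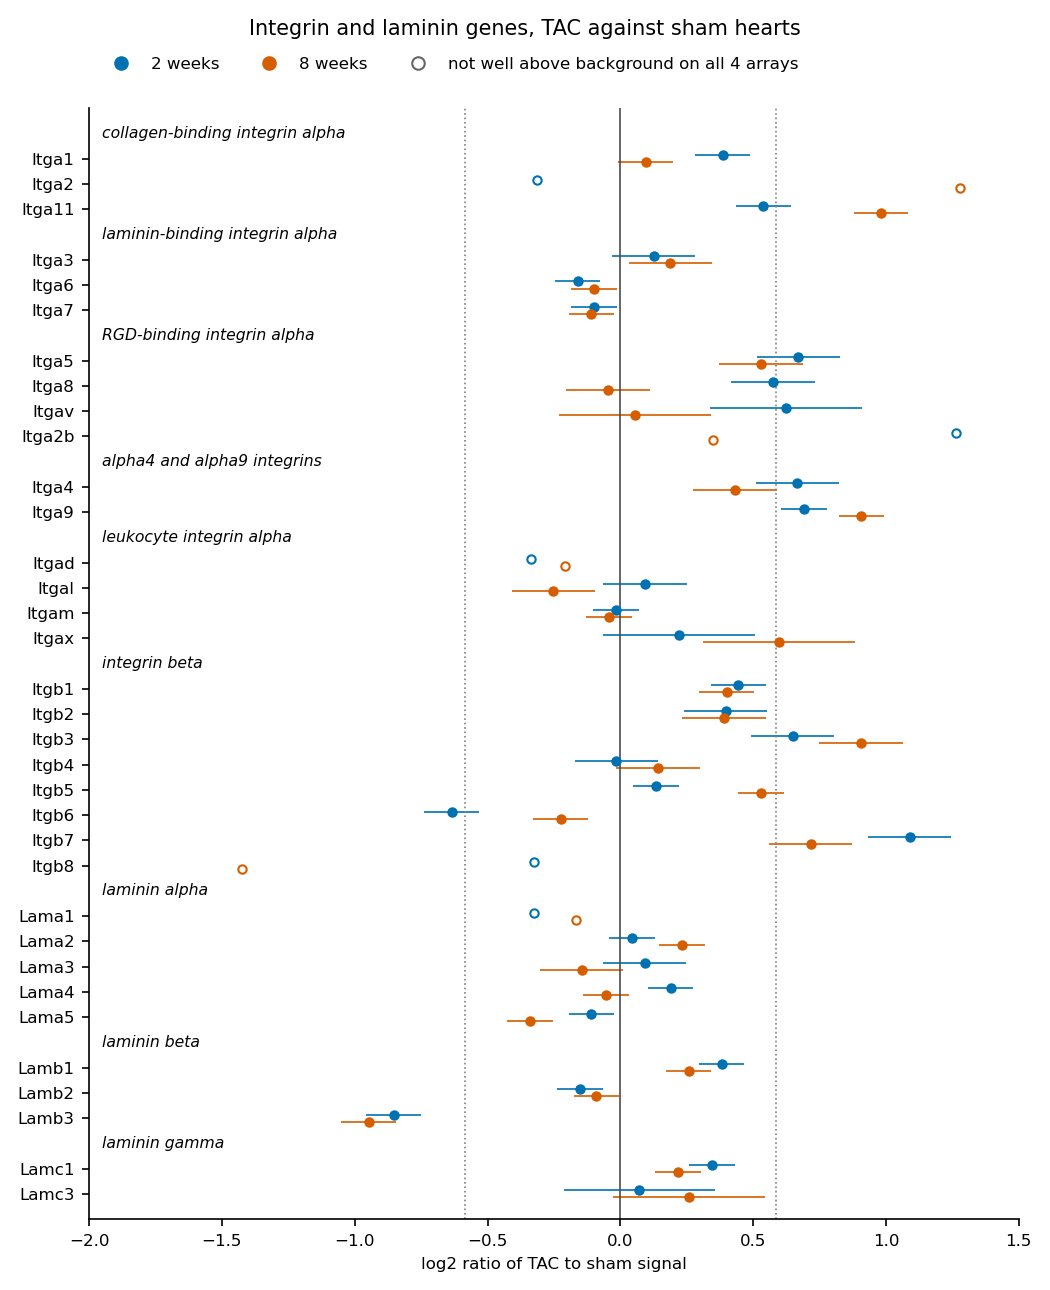
Log2 ratio of TAC to sham signal for 34 integrin and laminin genes with a probe, grouped by role, at 2 weeks (blue) and 8 weeks (orange), with 1 pool a condition. Bars are 1 SD of spot noise and dotted lines mark 1.5-fold. Open circles are the 5 genes not well above background on all 4 arrays. Itga9, Itga11, Itgb3 and Itgb7 lie to the right and Lamb3 to the left.

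Of the 35 genes, 23 (65.7%) had a ratio above 1 at 2 weeks and 21 (60.0%) at 8 weeks, against 43.2% and 39.8% of all named genes. The median log2 ratio was 0.13 at 2 weeks and 0.19 at 8 weeks, compared with -0.05 and -0.08 over all named genes. Well above background on all 4 arrays were 30 members, 20 integrins and 10 laminins. The integrins among these had median log2 ratios of 0.39 and 0.29 at the 2 times, and the laminins of 0.08 at each. For the 14295 named genes that met the same criterion the medians were -0.01 at both times. Between the sham pools the median of the 30 members was 0.00. Of the 30, 18 (60.0%) were higher at both times, 7 (23.3%) were lower at both and 5 (16.7%) changed sides. For the 14295 genes these shares were 33.6%, 36.5% and 29.9%. Across these 30 genes, which were measured on the same 4 arrays and are not independent replicates, the correlation between the log2 ratios of both times was 0.77 by Pearson's r and 0.75 by Spearman's rho, compared with 0.59 and 0.54 over the 14295 genes.

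**Figure D2:**
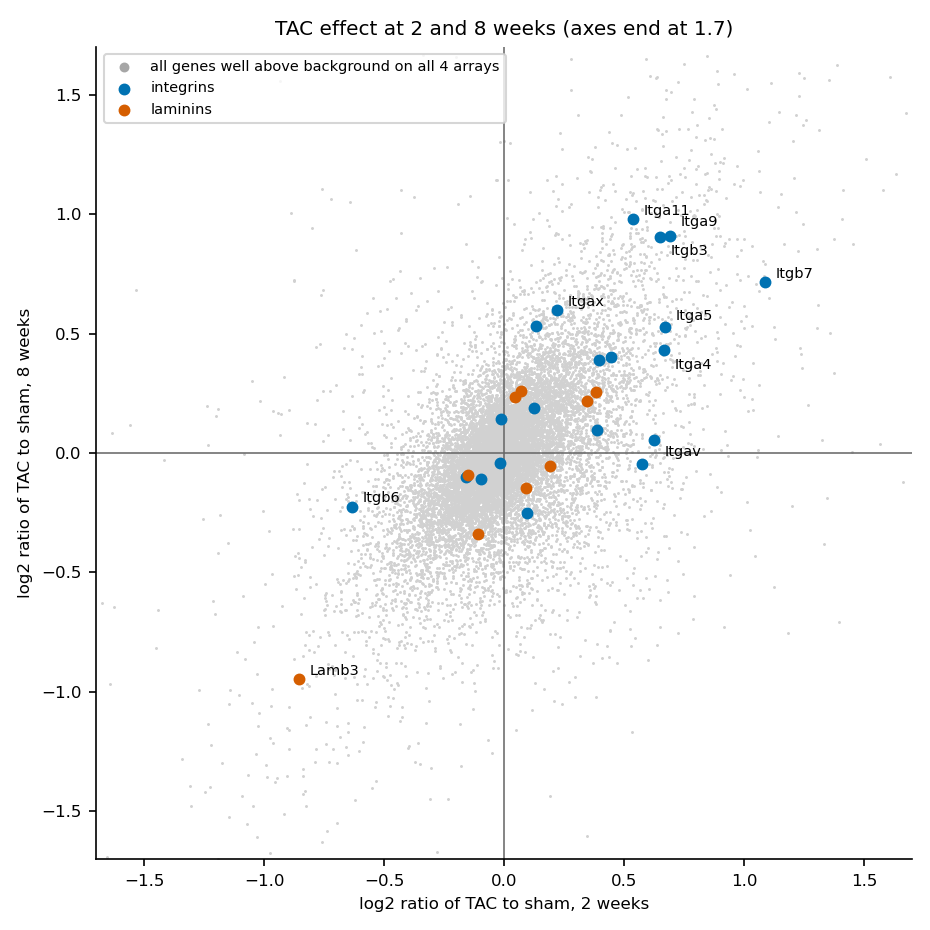
Log2 ratio of TAC to sham at 2 weeks (x axis) against that at 8 weeks (y axis), with integrins in blue, laminins in orange and all other genes well above background on all 4 arrays in gray. Of the members well above background on all 4 arrays, 29 are drawn, and those past 1.5-fold at a time are named. Itga9, Itgb3 and Itgb7 lie far in the upper right, and Lamb3 lies alone of the members in the far lower left.

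The start-site windows of Itga11, Itgb7 and Lamb3 are shown, because these genes gave the largest rise at 8 weeks, the largest rise at 2 weeks and the largest fall among members well above background on all 4 arrays. Each is 250 bases before to 50 after a RefSeq start on GRCm38.p6, printed 5′ to 3′ on the strand of the gene. The window of Itga11 is chr9:62677605-62677904 on the plus strand, at the annotated edge of the gene. That of Itgb7 is chr15:102231886-102232185 on the minus strand, with a start 1470 bases inside the annotated gene. That of Lamb3 is chr1:193301744-193302043 on the plus strand, with a start 7641 bases inside it. Capitals mark AGGAAG, or its reverse complement CTTCCT, a sequence that holds the core read by ETS factors.
Itga11: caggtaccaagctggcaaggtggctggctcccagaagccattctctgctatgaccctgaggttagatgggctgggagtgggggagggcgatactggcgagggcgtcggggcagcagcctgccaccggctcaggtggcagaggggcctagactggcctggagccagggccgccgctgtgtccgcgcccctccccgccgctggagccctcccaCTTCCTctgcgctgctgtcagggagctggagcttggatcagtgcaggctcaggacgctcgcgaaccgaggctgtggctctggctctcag
Itgb7: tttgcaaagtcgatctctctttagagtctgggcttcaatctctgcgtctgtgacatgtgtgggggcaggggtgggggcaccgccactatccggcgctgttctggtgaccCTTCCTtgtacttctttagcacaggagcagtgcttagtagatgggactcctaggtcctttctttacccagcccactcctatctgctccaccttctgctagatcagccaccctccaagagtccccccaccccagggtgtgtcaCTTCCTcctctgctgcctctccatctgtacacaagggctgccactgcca
Lamb3: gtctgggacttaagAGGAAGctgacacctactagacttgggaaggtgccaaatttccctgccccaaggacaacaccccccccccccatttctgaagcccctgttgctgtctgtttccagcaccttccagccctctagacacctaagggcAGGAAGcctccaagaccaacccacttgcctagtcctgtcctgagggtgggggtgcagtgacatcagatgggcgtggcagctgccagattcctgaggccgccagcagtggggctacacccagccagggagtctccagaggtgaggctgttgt
AGGAAG, chosen after the sequences had been looked at and searched on both strands, occurs 1 time in the window of Itga11 and 2 times in each of the other two. It is present in 11 of the 22 members that have a window, and in 35.1% of 27025 windows in all. TGAGTCA, the site of AP-1, was found in 2 of the 22 (Itga9 and Itgax) against 5.17% of all windows. The Sp1-type box GGGCGG was found in 11 against 35.9%, and the CArG box of serum response factor in Lama2 alone against 1.59%. A match is a run of letters and not a site shown to be bound. The window listed for Itga9 starts 104983 bases inside the gene and is not printed. Itgb3 has no window.

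Among the alpha chains that pair with beta1 to bind collagen, Itga11 changed most. Itga11, a collagen receptor of fibroblasts, lies on chromosome 9 from 62677855 to 62783979. Its relative signal was 1.26 in sham and 1.83 in TAC hearts at 2 weeks, and 1.28 in sham and 2.53 in TAC hearts at 8 weeks. The sham arrays were nearly equal and the TAC array at 8 weeks was highest. The ratios were 1.45-fold and 1.97-fold, or 0.54 and 0.98 on the log2 scale against a spot SD of 0.10. Itga1, a collagen receptor of smooth muscle and other mesenchymal cells, had log2 ratios of 0.39 and 0.10. Itga2, the collagen receptor of platelets and epithelium, was not well above background on any array.

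The laminin-binding alpha chains stayed within 1.5-fold at both times. Itga7, the partner of beta1 on striated muscle, gave 64.2 in sham and 60.0 in TAC hearts at 2 weeks, and 67.8 and 62.8 at 8 weeks. Its TAC signals lay slightly below sham at both times, with log2 ratios of -0.10 and -0.11. At 8 weeks this sign depended on the scaling, with 0.06 when the arrays were not normalized to each other. Itga3 had log2 ratios of 0.13 and 0.19. For Itga6, the laminin receptor of epithelium and endothelium, the probes disagreed. The brightest probe, which is assigned to a transcript known only by an Ensembl identifier, had log2 ratios of -0.16 and -0.10, while the probe on the RefSeq transcript had 0.43 and 0.31 at a signal 6.88 times lower.

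The alpha chains that read the RGD sequence of fibronectin and vitronectin had larger ratios at 2 weeks than at 8 weeks by their brightest probes, a difference that could not be tested. Itga5, which with beta1 forms the classical fibronectin receptor, had signals of 0.585 in sham and 0.932 in TAC hearts at 2 weeks, and 0.654 and 0.943 at 8 weeks. Both TAC arrays lay above both sham arrays. The ratios were 1.59-fold and 1.44-fold (log2 0.67 and 0.53). Itgav, the alpha chain shared by the receptors that bind vitronectin and latent TGF-beta, gave 0.167 and 0.258 at 2 weeks, and 0.196 and 0.204 at 8 weeks. Its brightest probe was thus 1.54-fold higher at 2 weeks and 1.04-fold at 8 weeks, close to background, where the spot SD is 0.29. The other probe of Itgav, of about the same brightness, had log2 ratios of 0.59 and 0.64, so the fading at 8 weeks was not seen with it. Itga8, found on mesenchymal cells, had log2 ratios of 0.58 and -0.05, and its sham pools differed by 0.52. Itga2b, the platelet fibrinogen receptor chain, was bright enough to be measured on 1 array alone, that of TAC at 8 weeks. Its signals at 8 weeks were 0.063 in sham and 0.081 in TAC hearts, a ratio of 1.27-fold (log2 0.35). Its sham pools differed by 1.71 on the log2 scale, more than this ratio, so a rise could not be told from differences between pools.

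Itga4 and Itga9 form a small group of alpha chains that bind fibronectin variants, VCAM1, tenascin and osteopontin. Itga9 lies on chromosome 9 from 118606709 to 118901003. Its signal was 6.97 in sham and 11.3 in TAC hearts at 2 weeks, and 6.44 in sham and 12.1 in TAC hearts at 8 weeks. Both TAC arrays were above both sham arrays. The ratios were 1.62-fold and 1.88-fold, or 0.69 and 0.91 on the log2 scale, against a spot SD of 0.09 and a difference of -0.11 between the sham pools (8 weeks minus 2 weeks). Itga4, carried by leukocytes, gave 0.256 and 0.406 at 2 weeks, and 0.252 and 0.340 at 8 weeks. It rose 1.59-fold at 2 weeks, and its ratio was 1.35-fold at 8 weeks. With normexp the log2 ratio at 2 weeks was 0.42, below 1.5-fold. The second probe of Itga4 was not well above background on any array and had log2 ratios of -0.34 and -0.19, and the mean over both probes at 2 weeks was 0.16.

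**Figure D3:**
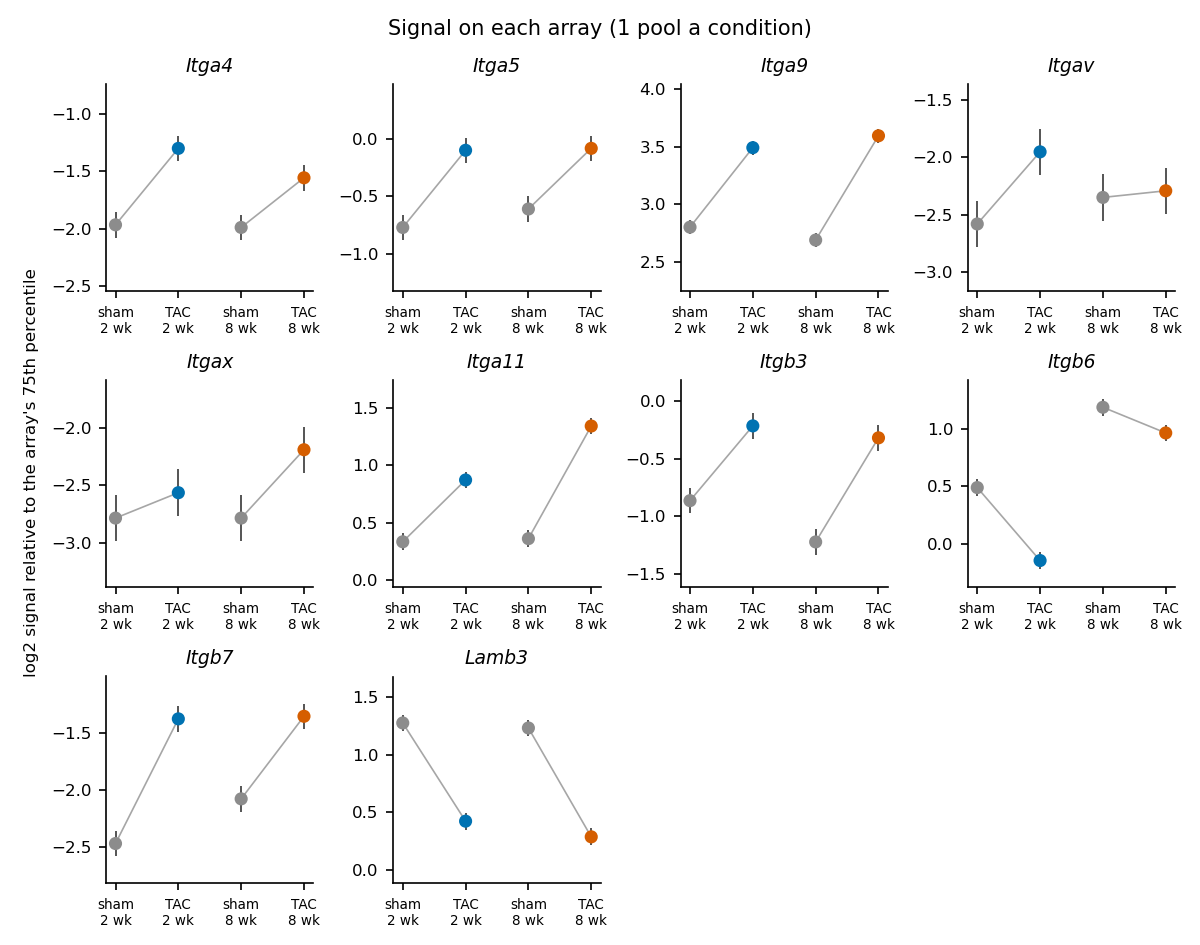
Log2 relative signal on each of the 4 arrays for 10 members past 1.5-fold at a time, with sham in gray, TAC at 2 weeks in blue and TAC at 8 weeks in orange. Each point is 1 pool, bars are 1 SD of a single spot, and every panel spans the same 1.8 log2 units. In Itga4, Itga5, Itga9, Itgav, Itgax, Itga11, Itgb3 and Itgb7 both TAC points lie above both sham points. In Lamb3 both lie below, and in Itgb6 neither holds.

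The alpha chains of the leukocyte integrins showed mixed values. Itgax, the CD11c chain of dendritic cells and some macrophages, gave 0.145 and 0.169 at 2 weeks, and 0.145 and 0.219 at 8 weeks. It was just past the threshold at 8 weeks, at 1.51-fold, with a spot SD of 0.29 on the log2 scale, and normexp gave a log2 ratio of 0.17. Itgal, the LFA-1 chain, gave 0.344 and 0.367 at 2 weeks, and 0.399 and 0.335 at 8 weeks, with log2 ratios of 0.09 and -0.25. Itgam, the CD11b chain of myeloid cells, had 3 probes. Its brightest probe gave 150.7 and 149.1 at 2 weeks, and 148.6 and 144.3 at 8 weeks, values that differed little between arrays. The signals of the 3 probes span 458.8-fold, and the log2 ratios at 2 and 8 weeks were -0.38 and -0.49 for the second probe, and 0.16 and -0.16 for the dimmest. Which transcripts the brightest probe reads was not tested. Itgad was not well above background on any array.

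The beta chains held the largest rise. Itgb7, the partner of alpha4 and alphaE on lymphocytes and mast cells, lies on chromosome 15 from 102215994 to 102233405. Its signal was 0.181 in sham and 0.384 in TAC hearts at 2 weeks, and 0.237 in sham and 0.390 in TAC hearts at 8 weeks. The TAC arrays nearly matched, and the sham arrays differed by 0.39 on the log2 scale. The ratios were 2.13-fold and 1.64-fold (log2 1.09 and 0.72). Itgb7 is dim, and normexp gave log2 ratios of 0.52 and 0.36, below 1.5-fold at both times.

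Itgb3, which pairs with alphaV or alphaIIb on vessels, platelets and macrophages, lies on chromosome 11 from 104608000 to 104670476. Its signal was 0.549 in sham and 0.862 in TAC hearts at 2 weeks, and 0.428 in sham and 0.802 in TAC hearts at 8 weeks. Both TAC arrays lay above both sham arrays, by 1.57-fold and 1.87-fold within each time (log2 0.65 and 0.91). The sham pools differed by -0.36. A dimmer probe of Itgb3, measured above background on 1 of 4 arrays, had log2 ratios of -1.60 and 0.38, and the mean over both probes at 2 weeks was -0.48.

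Itgb1, the common partner of most alpha chains and the main beta chain of cardiomyocytes, gave 2.16 in sham and 2.94 in TAC hearts at 2 weeks, and 2.32 and 3.06 at 8 weeks. Both TAC signals were above both sham signals, with 1.36-fold and 1.32-fold (log2 0.44 and 0.40), short of 1.5-fold. A further probe of Itgb1 had log2 ratios of 0.25 and 0.15. Itgb2, the beta chain of the leukocyte integrins, gave 0.532 and 0.700 at 2 weeks, and 0.504 and 0.661 at 8 weeks, or 1.32-fold and 1.31-fold. Itgb5, a vitronectin receptor chain, had log2 ratios of 0.13 and 0.53 in order of time, against a spot SD of 0.09.

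Itgb6, an epithelial chain that with alphaV activates TGF-beta, fell at 2 weeks. Its signal was 1.40 in sham and 0.904 in TAC hearts at 2 weeks, and 2.28 and 1.95 at 8 weeks. It was 1.55-fold lower after TAC at 2 weeks and 1.17-fold lower at 8 weeks. By this probe, the brightest, the sham pools themselves differed by 0.70 on the log2 scale, more than the fall by 0.64 at 2 weeks. A dimmer probe of Itgb6, well above background on all 4 arrays, gave log2 ratios of -0.97 and -0.34. Its sham pools differed by 0.15, at signals where the spot SD is 0.29. Itgb4, which anchors epithelium to laminin, had log2 ratios of -0.02 and 0.14, and Itgb8 was not well above background on any array.

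**Figure D4:**
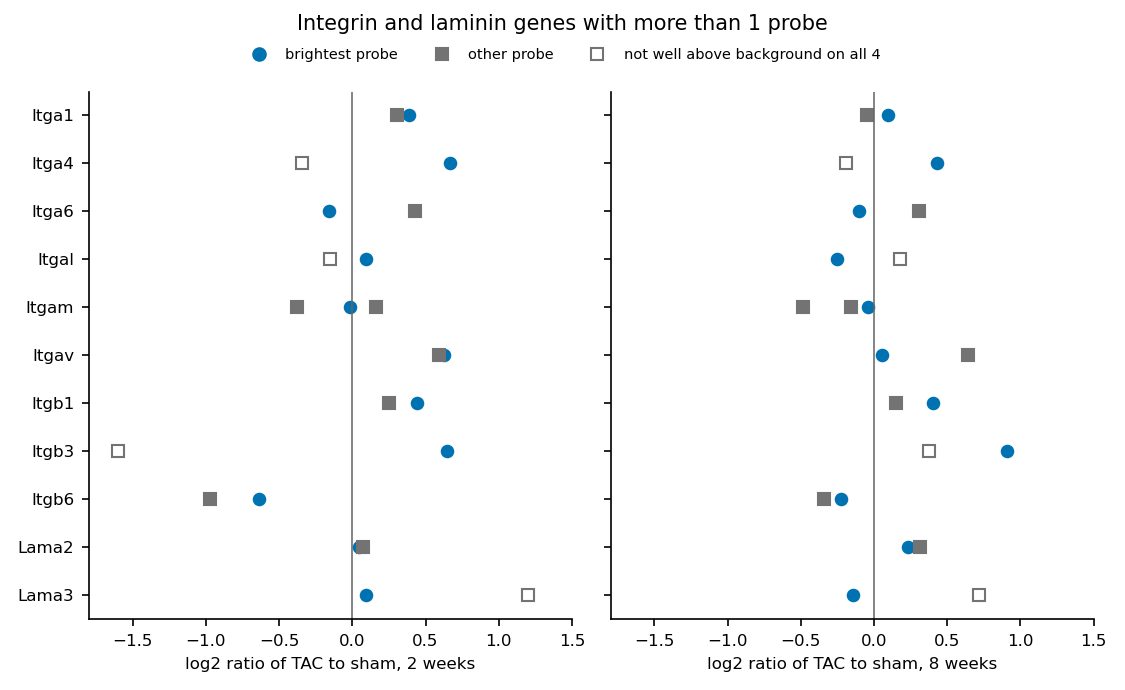
Log2 ratio of TAC to sham at 2 weeks (left) and 8 weeks (right) for each probe of the 11 members with more than 1 probe. Blue circles are the brightest probe, gray squares the others, and open symbols probes not well above background on all 4 arrays. Probes of Lama2 lie close together at both times, those of Itga6 lie on opposite sides of 0, and those of Itgav part at 8 weeks.

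Among laminins, the chains that make up the trimers of heart muscle and vessels stayed within 1.5-fold. Lama2, the alpha chain of the muscle laminin, gave 17.2 in sham and 17.8 in TAC hearts at 2 weeks, and 16.1 and 19.0 at 8 weeks. Its log2 ratios were 0.05 and 0.23, and a further probe gave 0.07 and 0.32. With normexp the log2 ratio of the brightest probe at 8 weeks was 0.38. Lama4 and Lama5, the alpha chains of vessel walls, stayed near sham at 2 weeks (log2 0.19 and -0.11) and at 8 weeks (-0.05 and -0.34). Lama3, of epithelial laminin, had 0.09 and -0.15, while its second probe, well above background on 3 of 4 arrays, had 1.20 and 0.72, and Lama1 was not well above background on any array.

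The beta1 and gamma1 chains had ratios of similar size. Lamc1, the gamma chain of most laminins, gave 15.4 and 19.5 at 2 weeks, and 15.5 and 18.0 at 8 weeks. Both TAC arrays lay above both sham arrays, at 1.27-fold and 1.16-fold. Lamb1, a beta chain widespread in basement membranes, had log2 ratios of 0.38 and 0.26, against 0.34 and 0.22 for Lamc1. With normexp the log2 ratio of Lamc1 at 8 weeks was 0.34. Lamb2, a beta chain of muscle, synapse and vessel laminins, gave 30.1 and 27.1 at 2 weeks, and 31.0 and 29.1 at 8 weeks. Its log2 ratios were -0.15 and -0.09, and the latter was 0.08 without normalization between arrays. Lamc3 had 0.07 and 0.26.

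Lamb3, the beta chain that joins Lama3 in an epithelial laminin, gave the largest fall of the set among members well above background on all 4 arrays. Lamb3 lies on chromosome 1 from 193294353 to 193343878. Its signal was 2.42 in sham and 1.34 in TAC hearts at 2 weeks, and 2.35 in sham and 1.22 in TAC hearts at 8 weeks. The sham arrays were almost equal, with a log2 difference of -0.04, and both TAC arrays were lower. It was 1.81-fold lower at 2 weeks and 1.93-fold lower at 8 weeks (log2 -0.85 and -0.95, spot SD 0.10).

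The partners of the laminins and integrins were counted in the same way. Of all named genes, 4.84% were over 1.5-fold higher at 2 weeks and 5.16% at 8 weeks. Over 1.5-fold lower were 2.38% and 4.01%. A list of 11 genes held laminin receptors other than integrins and proteins in complex with dystroglycan. Its genes are dystroglycan, the sarcoglycans, dystrophin with its kin, Bcam and Rpsa. None was past 1.5-fold at either time, and the median log2 ratios were -0.12 and -0.07. Dag1, dystroglycan itself, had -0.03 and 0.04. The largest sizes at 8 weeks were those of Sntb1, a syntrophin, with -0.45, and Bcam, a laminin alpha5 receptor, with -0.41. Of 13 basement membrane partners of laminin, 7 were over 1.5-fold higher at 2 weeks and 4 at 8 weeks, none was lower, and the medians were 0.63 and 0.37. Col4a1 and Col4a2, the collagen IV chains found in all basement membranes, passed 1.5-fold at both times, with log2 ratios of 0.95 and 0.63 for the former and 0.83 and 0.66 for the latter. Col18a1, the source of endostatin, had 0.81 and 0.61. Col4a3, which is among the counted genes at both times, reached 1.08 at 8 weeks but was well above background on 2 arrays only.

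Of 28 integrin adaptors and focal adhesion genes with a probe, 2 were over 1.5-fold higher at 2 weeks and 3 at 8 weeks, and none was lower. Among all named genes 4.84% and 5.16% were higher, and 2.38% and 4.01% lower. Their medians were 0.16 and 0.09. Nmrk2, which was listed under its older name as a beta1-binding protein and is also a nicotinamide riboside kinase of muscle, rose 2.20-fold and 4.79-fold, with a difference of -0.91 between the sham pools. Flnc, the filamin of striated muscle, had log2 ratios of 0.57 and 0.94. Fermt3, the kindlin of blood cells, had 0.79 and 0.56, and Pxn, paxillin, had 0.31 and 0.65. Tln1, talin, which links beta chains to actin, had 0.34 and 0.42.

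Of 19 other integrin ligands, 6 were over 1.5-fold higher at 2 weeks and 9 at 8 weeks, and none was lower. Among all named genes 4.84% and 5.16% were higher, and 2.38% and 4.01% lower. The medians of the ligands were 0.54 and 0.65. Postn, periostin, a matrix protein that binds alphaV integrins, rose 4.91-fold and 7.59-fold. Thbs1, thrombospondin, rose 3.96-fold and 4.04-fold, although the sham pools also differed by 1.14 on the log2 scale. Col1a1, bound by the collagen receptors, had log2 ratios of 0.97 and 1.20, and Ccn1 had 0.54 and 1.09. Fn1, the ligand of alpha5 and alpha4 integrins, had 1.10 and 0.65. Tnc, Spp1, Npnt, Cdh1, Ccn3 and Fgb were not well above background on any array.

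**Figure D5:**
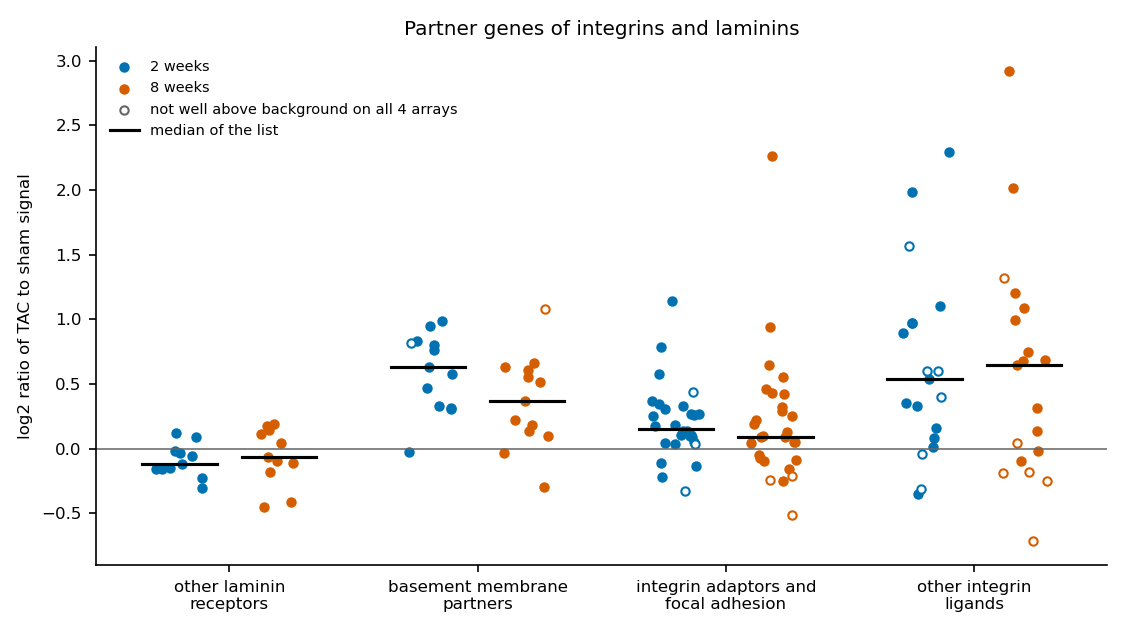
Log2 ratio of TAC to sham for the partner genes of integrins and laminins in 4 lists, at 2 weeks (blue) and 8 weeks (orange). Each point is 1 gene, bars are medians, and open circles are genes not well above background on all 4 arrays. The list labeled other laminin receptors, which includes proteins in complex with dystroglycan, lies around 0. Most basement membrane partners and many ligands lie above it.

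Markers of cell types were read beside these values. The summed relative signal of 6 fibroblast markers was 197.9 in sham and 265.1 in TAC hearts at 2 weeks, and 222.8 and 315.3 at 8 weeks, and 6 of 6 and 5 of 6 were higher. Tcf21 had a log2 ratio of -0.55 at 8 weeks. Col1a1 and Col1a2 belong to this sum and also to the ligands above. At 2 weeks Col1a2 went from 33.0 in sham to 61.5 in TAC hearts, Col1a1 from 11.9 to 23.3, and Dcn from 142.3 to 161.7. The sum of 6 macrophage markers was 33.0 and 41.6 at 2 weeks, and 33.7 and 43.1 at 8 weeks, with 6 of 6 higher at each time. Csf1r gave 26.9 of the 33.0 in sham hearts at 2 weeks. The fibroblast and macrophage sums moved in the direction of Itga9, Itga11 and Itgb3, and the part of these cells in the rises was not tested.

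Of the 6 lymphocyte markers, set beside Itgb7, 5 were above sham at 2 weeks and 3 at 8 weeks, and their sum was 5.998 and 6.355 at 2 weeks, and 5.42 and 4.89 at 8 weeks. Cd3g and Cd8a were not well above background on any array. The 6 endothelial markers summed to 68.8 and 66.1 at 2 weeks and to 61.3 and 59.4 at 8 weeks. Kdr leads this sum. By gene, 4 of 6 were above sham at 2 weeks and 3 of 6 at 8 weeks, with median log2 ratios of 0.19 and -0.03. The 6 platelet markers summed to 14.8 and 16.7, and to 16.7 and 18.6, mostly from Pf4, which gave 13.2 of the 14.8. By gene, 3 of 6 were above sham at 2 weeks and 2 of 6 at 8 weeks, with medians of 0.05 and -0.12, and Gp1ba was not well above background on any array. The 6 smooth muscle and pericyte markers summed to 61.1 and 70.6, and to 62.8 and 60.7. At each time 5 of 6 were above sham, with medians of 0.32 and 0.15, and Acta2 went from 27.2 in sham to 20.6 in TAC hearts at 8 weeks. Cardiomyocyte markers were bright on every array, and their median log2 ratios were -0.20 and -0.32.

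Epithelial and mesothelial markers were read for Itgb6 and Lamb3. Epcam, Krt8 and Upk3b were not well above background on any array. The 6 markers summed to 0.476 and 0.923 at 2 weeks, and to 0.415 and 1.28 at 8 weeks. Krt18 carried the sum at 8 weeks, with 0.207 in sham and 1.06 in TAC hearts. Of the 6, 2 were well above background on all 4 arrays, Krt18 and Msln, and Msln had log2 ratios of 1.13 and -0.56. Schwann cell markers summed to 3.29 and 2.75 at 2 weeks, and to 3.44 and 2.68 at 8 weeks, the direction of Lamb3, with 2 of 6 above sham at each time. Fat cell markers summed to 206.3 and 241.7, and to 148.7 and 147.7, nearly all of it from Fabp4, and Adipoq was not well above background on any array. The part of these cell types in the values of Itgb6 and Lamb3 was not tested.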

How the data were processed

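Single-color arrays of 4 pools, 1 for each condition, were analysed. The authors scanned them with Agilent Feature Extraction (10.7.3.1 in the file headers, 9.1 in the labels, probe annotation on mm9). The deposited value is the intensity of each spot after removal of background and spatial trends by that software, with no scaling across arrays. A deposited summary table gives this intensity multiplied, per array, by a constant between 3.52 and 4.35.

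Here log2 signals were averaged over the spots of a probe without outlier spots, and the array's 75th percentile was subtracted. Probes were named through their accessions with the RefSeq tables (GRCm38.p6), and gene extents are those of that build. The brightest probe by mean signal stood for a gene. With 1 array per condition no test was run within a time, and the number of arrays limits the precision. The fit over both times used limma on all 21762 named genes with time as a block and a trended prior.

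The genes and lists were chosen with earlier results of these data known. Values on all arrays are given for members well above background on all 4 arrays and past 1.5-fold at either time, for Itgb1, Itga7, Lama2, Lamb2 and Lamc1, and for Itgb2, Itgam and Itgal. The values of 1 member are not reported here. Partner genes are those past 2-fold at both times and up to 4 more per list by size at 8 weeks, and Dag1, Fn1 and Tln1 were added after their values were seen. Where a member was well above background on only the brighter array of a pair, a lower bound of its fold was computed. It was taken against the dimmer array's lowest signal marked well above background, or the probe's own signal if that was larger. This applied to Itga2b at 8 weeks, where the bound equals the 1.27-fold given. Partner genes such as Col4a3, and all counts, used the measured ratio without such a bound.

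Alternatives were centering on the median, quantile normalization, no normalization, normexp background correction (offset 50, limma 3.58.1 in R 4.3.3), the deposited table, outlier spots kept, the mean over all probes, other filters on dim probes, and thresholds of 1.5-fold and 3-fold. Normexp was run on the median signals of spots and background, not on the processed signal. The counts past 1.5-fold under the alternatives and the fit with time as a block were added after the values were seen. Python 3.11.15, pandas 2.3.3, numpy 2.4.6 and matplotlib 3.10.9 were used.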

Additional observations from a re-analysis of the deposited data

How the results depend on the processing

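The counts past 2-fold depended on the threshold, the filter, the scaling and the background correction. The 1 member up at 2 weeks became 6 at 1.5-fold, 0 at 3-fold, 0 with normexp background correction and 2 without a filter on dim probes. The count down at 2 weeks, 0, became 2 at 1.5-fold. The count up at 8 weeks, 0, became 6 at 1.5-fold, 1 with centering on the median, 3 without normalization between arrays and 1 without a filter. The count down at 8 weeks, 0, became 1 at 1.5-fold and 1 without a filter. The other alternatives left these counts as they were. Past 1.5-fold, the 6 members up at 2 weeks became 1 with normexp and the 2 down became 1, while under the other normalizations, the deposited table, kept outlier spots and the mean over probes they ran from 5 to 7 and stayed at 2. At 8 weeks the 6 up ran from 4 to 9 and the 1 down stayed. In place of the 3 members higher and 1 lower past 1.5-fold at both times, the limma fit with time as a block called 6 and 1. On normexp values it called 13 and 2 with infinite prior degrees of freedom, so that each gene's own spread did not enter its p.

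The median log2 ratio of the members at 8 weeks, 0.188, became 0.356 without normalization and 0.038 with normexp. Omitting the normalization shifted all probes at 8 weeks by 0.17, and the cause of the change with normexp was not tested. At 2 weeks the median ran from 0.09 to 0.16. Of 266 values of named members under the alternatives, 218 stayed within the spot SD, and 48 moved by more, of which 1 past 1.5-fold turned its sign, Itgb3 at 2 weeks, with -0.48 as the mean over its probes. Values under 1.5-fold turned as well, among them at 8 weeks Itga7 (0.06), Itgam (0.13) and Lamb2 (0.08) without normalization, Itgam (0.05) with centering on the median and Itgav (-0.02) with normexp. Of the 30 members well above background on all 4 arrays, 21 to 24 were higher at 2 weeks and 19 to 26 at 8 weeks. Under the main processing 48.9% and 48.3% of the 14295 named genes of this kind were higher.

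No paired analysis was possible because the labels give no replicate numbers that pair the pools, other than by time as above. Spread between mice was not measured, and genes near background, Itgav, Itgax and Lamc3 among them, have the largest spot noise.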
